A study of Mus musculus with 6 samples.

Results

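The nuclear genes of respiratory complex I were described in the hearts of 3 WT and 3 Mc4r KO mice. Members were all rows of the deposited gene table that were annotated as protein coding and whose gene name starts with Nduf, which gave 46 of the 54532 genes listed. They hold 7 core subunits, 9 accessory subunits of the matrix arm, 9 of the proximal and 10 of the distal membrane arm, the acyl carrier protein Ndufab1, Ndufa4 with its paralog Ndufa4l2, and the 8 assembly factors Ndufaf1 to Ndufaf8. The biotype left out 4 processed pseudogenes named Nduf and Ndufb1-ps, which the table lists as a noncoding gene, so the Ndufb1 subunit is not among the members.

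The mice were male littermates of 12 weeks on the C57B/6/N background, obtained by mating heterozygotes, and the Mc4r KO mice lack the melanocortin-4 receptor in the whole body. There was 1 library per mouse. The tissue is given as heart by the source label and as muscle by the titles, and the study's own text speaks of the left ventricle. Whole tissue was used, so a lower level of a transcript cannot be told apart from fewer cells that carry it.

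Complex I oxidizes NADH in the mitochondrial matrix, passes the electrons along a chain of iron-sulfur clusters to ubiquinone, and pumps protons across the inner membrane. It is built as an arm in the matrix, which carries the redox centres and is made of nuclear gene products, and an arm in the membrane, whose pumping core is encoded by mitochondrial DNA and surrounded by nuclear accessory subunits. Assembly factors build the enzyme and are absent from the finished complex. The heart, which depends on oxidative metabolism, is one of the tissues richest in it, and promoters of its nuclear genes are known to carry sites for regulators such as NRF1, GABP, YY1 and the estrogen-related receptors.

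The upstream sequences of members that share a motif, and of members with large differences between the groups, are shown first. Whether a motif bears on the members' values was not tested. They come from RefSeq (GRCm38.p6), which gave a promoter of 250 bases before and 50 after the start for 40 of the 46 members. Capitals mark the NRF1 core GCGCATGC or the estrogen-related receptor half-site AAGGTCA on either strand, and all bases inside an annotated exon were left out. The first is that of Ndufa11 (chr17:56717686-56717761, plus strand), with 2 overlapping NRF1 cores that start 58 and 60 bases before the start site:
Ndufa11: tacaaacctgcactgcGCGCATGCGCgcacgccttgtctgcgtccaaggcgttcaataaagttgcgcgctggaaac
The next belongs to Ndufa6 (chr15:82354323-82354541, minus strand) and holds 1 NRF1 core, 83 bases before the start:
Ndufa6: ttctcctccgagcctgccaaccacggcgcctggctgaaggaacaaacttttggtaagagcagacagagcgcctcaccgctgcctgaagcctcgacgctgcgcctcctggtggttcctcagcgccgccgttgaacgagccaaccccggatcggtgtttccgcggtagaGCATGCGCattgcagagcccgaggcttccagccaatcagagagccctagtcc
Ndufaf4 (chr4:24897833-24898082, plus strand) has overlapping NRF1 cores 111 and 113 bases before its start:
Ndufaf4: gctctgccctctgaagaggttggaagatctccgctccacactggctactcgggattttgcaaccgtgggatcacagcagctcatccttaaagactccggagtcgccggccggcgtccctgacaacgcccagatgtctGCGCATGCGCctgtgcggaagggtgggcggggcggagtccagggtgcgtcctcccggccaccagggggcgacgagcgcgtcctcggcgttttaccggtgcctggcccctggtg
Ndufs5 (chr4:123718203-123718436, minus strand) has a half-site for the estrogen-related receptors 228 bases before its start:
Ndufs5: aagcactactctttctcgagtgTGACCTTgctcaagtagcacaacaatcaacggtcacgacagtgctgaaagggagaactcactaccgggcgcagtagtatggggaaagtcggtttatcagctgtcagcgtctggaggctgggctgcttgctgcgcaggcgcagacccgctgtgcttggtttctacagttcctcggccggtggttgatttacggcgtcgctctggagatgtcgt
Ndufb6 (chr4:40279422-40279671, minus strand) and Ndufb8 (chr19:44555443-44555692, minus strand), whose differences were among the 4 largest, hold neither motif in the bases shown:
Ndufb6: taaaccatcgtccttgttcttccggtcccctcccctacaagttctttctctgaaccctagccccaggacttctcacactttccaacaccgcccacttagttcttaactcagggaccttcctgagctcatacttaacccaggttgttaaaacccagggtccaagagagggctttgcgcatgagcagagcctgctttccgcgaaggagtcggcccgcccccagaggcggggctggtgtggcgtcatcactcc
Ndufb8: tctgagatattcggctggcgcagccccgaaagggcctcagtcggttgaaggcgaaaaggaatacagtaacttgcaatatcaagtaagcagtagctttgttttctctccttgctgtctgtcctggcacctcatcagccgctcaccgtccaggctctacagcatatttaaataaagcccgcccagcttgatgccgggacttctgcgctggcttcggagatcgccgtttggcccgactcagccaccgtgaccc

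Over the whole 300-base window, the NRF1 core was found in 5 of the 40 members (12.5%), which are Ndufa6, Ndufa8, Ndufa11, Ndufaf4 and Ndufaf5, and in 3.05% of all 27025 genes with a promoter. The half-site AAGGTCA was found in 3 members (7.5%), Ndufb2, Ndufb4 and Ndufs5, against 5.38% of all genes. The YY1 core AAGATGG was present in 8 members (20%), against 7.28%. The GABP site CCGGAAGT was present in 1 member (2.5%), Ndufs3, against 4.31%, and the hypoxia-factor core ACGTG in 7 (17.5%), against 21.8%. All motifs were searched on both strands as these exact letters, so a match or its absence says nothing about binding. Members with the same motif did not have the same difference between the groups: of the NRF1 set, Ndufa8 had a log2 fold change of 0.70 and Ndufaf4 of 0.07.

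Reads on genes numbered from 14767929 to 16047003 per WT library and from 14691076 to 15649074 per Mc4r KO library. On a gene of 1 kb a count of 3 reads equals 0.176 to 0.213 FPKM (fragments per kilobase of gene length, divided by a factor for each library). That factor did not follow the reads on genes. Mc4r KO replicate 1 had the fewest, yet 3 reads equal 0.193 FPKM there and 0.213 FPKM in WT replicate 1. Median-of-ratios factors, each the median over genes of a library's ratio to the geometric gene mean, were 1 in each library. The deposited values were thus already level by that measure. How the factor was set before deposit was not tested. Mc4r itself had 2 reads in WT replicate 3 and 0 in the other 5 libraries, so the genotype could not be checked from it. The 7 cardiomyocyte markers summed to 13800 to 14730 FPKM in WT and 16800 to 18350 FPKM in Mc4r KO, with 6 of 7 higher in Mc4r KO, while the 5 fibroblast markers summed to 193 to 199.6 and 140 to 161 FPKM, with 4 of 5 lower. The 5 skeletal muscle markers summed to 0.283 to 0.885 FPKM in WT and 0.218 to 0.437 FPKM in Mc4r KO, with Myh4 at 0 in all libraries. The 5 adipocyte markers summed to 0.467 to 1.02 FPKM in WT and 0.0283 to 0.328 FPKM in Mc4r KO, with Ucp1 at 0 in all libraries. Among them Cfd had 0.385, 0.831 and 0.573 FPKM in WT and 0.210, 0 and 0 in Mc4r KO. The 4 atrial markers summed to 28.6 to 747 FPKM in WT and 6.29 to 136 FPKM in Mc4r KO, with all 4 lower in Mc4r KO, the highest sum in WT replicate 3, and Sln at 0 in WT replicate 1 and in Mc4r KO replicates 2 and 3. The 5 erythrocyte markers summed to between 859 and 6344 in WT and between 620 and 1651 in Mc4r KO, with all 5 lower. The part of other cell types in the members' values was not tested. Transcripts of the mitochondrial chromosome made up 59.3%, 57.4% and 47.1% of all FPKM in WT and 43.6%, 46.6% and 43.0% in Mc4r KO, in the order of replicates 1, 2 and 3 that is kept throughout. WT replicate 3 therefore stood apart from the other WT libraries and close to the Mc4r KO libraries in this share.

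All members were transcribed in the heart, and their levels spanned about 2 orders of magnitude on the FPKM scale, which is per length. Ndufa4 had the highest mean over the 6 libraries (449 FPKM), and Ndufb11 (315 FPKM) was among the 3 highest. Ndufaf2 (4.10 FPKM), Ndufb2 (4.10 FPKM) and Ndufaf7 (6.74 FPKM) had the lowest. The median level was 200.3 FPKM among core subunits, 116 among matrix arm accessory subunits, 175 in the proximal and 104 in the distal membrane arm, and 12.5 among the assembly factors. The assembly factors and Ndufa4l2 lay below all subunits other than Ndufb2.

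The level of a gene in FPKM depends on the length it was given, and that of Ndufb2, a small subunit of the distal membrane arm, is 5628 bases in the table, while its coding part has 318. Expressed on the length of a representative transcript rather than on the gene length, Ndufb7 moved from rank 35 to 9 and Ndufb8 from 32 to 14, whereas Ndufb2 came last, with a representative of 4371 bases. The order of levels between members with such long gene models is thus less certain than the comparison of the groups, in which the length cancels.

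**Figure D1:**
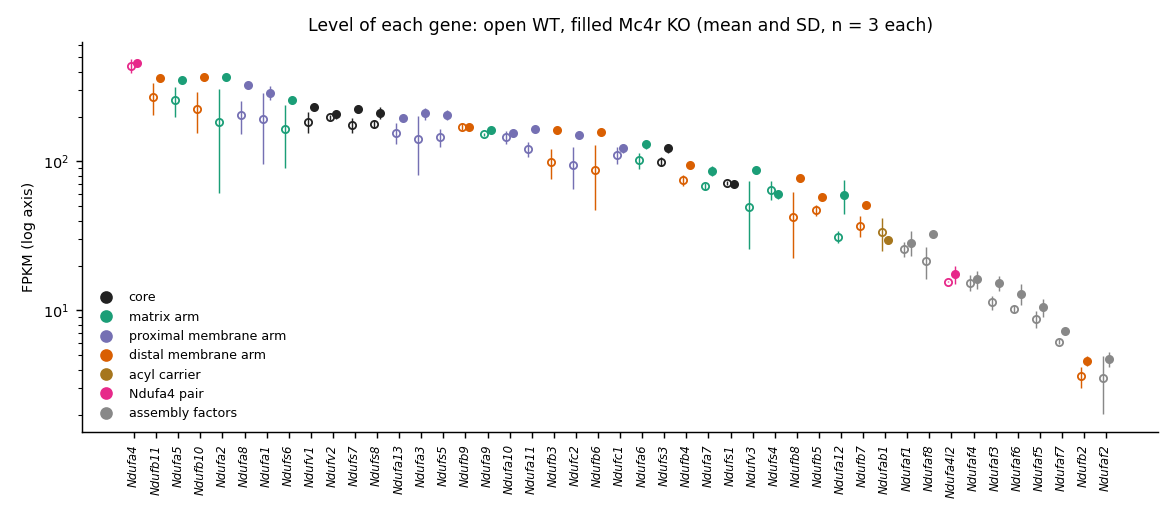
FPKM of 45 of the 46 members on a log axis, ordered by the mean over the 6 libraries, with the mean and SD of the 3 WT libraries (open) and of the 3 Mc4r KO libraries (filled), coloured by role. Assembly factors and Ndufa4l2 fill the low end with Ndufb2, Ndufa4 stands at 438 FPKM in WT and 460 in Mc4r KO, and long WT bars mark members such as Ndufa2 whose WT libraries differ.

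In the Mc4r KO hearts most members had higher values than in the WT hearts, by a median log2 fold change of 0.35. No member passed the threshold for a call, which 0.46% of all genes tested passed. The sum over the 46 members was 4774, 4833 and 6218 FPKM in WT and 6809, 7313 and 6825 FPKM in Mc4r KO. The groups did not overlap in this sum, and WT replicate 3 lay between the other WT libraries and the Mc4r KO libraries. As a share of all reads on genes the members took 0.772%, 0.788% and 1.01% in WT and 1.11%, 1.09% and 1.06% in Mc4r KO. As a share of the reads outside the mitochondrial chromosome they took 1.19%, 1.17% and 1.36% in WT and 1.44%, 1.46% and 1.38% in Mc4r KO, so the groups came closer but still did not overlap. These shares describe 3 mice against 3, for which an exact permutation test cannot give a p below 0.1.

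Each gene was tested with limma on log2(FPKM + 0.1) over 18035 genes, those whose FPKM averaged 0.1 or more, and all 46 members were among them. For a call, the Benjamini-Hochberg adjusted p had to be under 0.05 and the log2 fold change, in either direction, above 0.75. By this rule 0 of 46 members were called, where 0.46% of all genes tested were called. At any fold 0 members had an adjusted p under 0.05, against 0.582% of all genes. An unadjusted p under 0.05 was found for 30 members, all higher in Mc4r KO (65.2%), against 12% of all genes with such a p and a higher value. Of the members 43 had a positive log2 fold change (93.5%), against 48.8% of all genes, whose median was -0.01. In 28 members (60.9%) the lowest Mc4r KO value exceeded the highest WT value, against 14.1% of all genes, and 0 members had the reverse, against 12.4%. The members are measured in the same libraries and are not independent of each other.

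**Figure D2:**
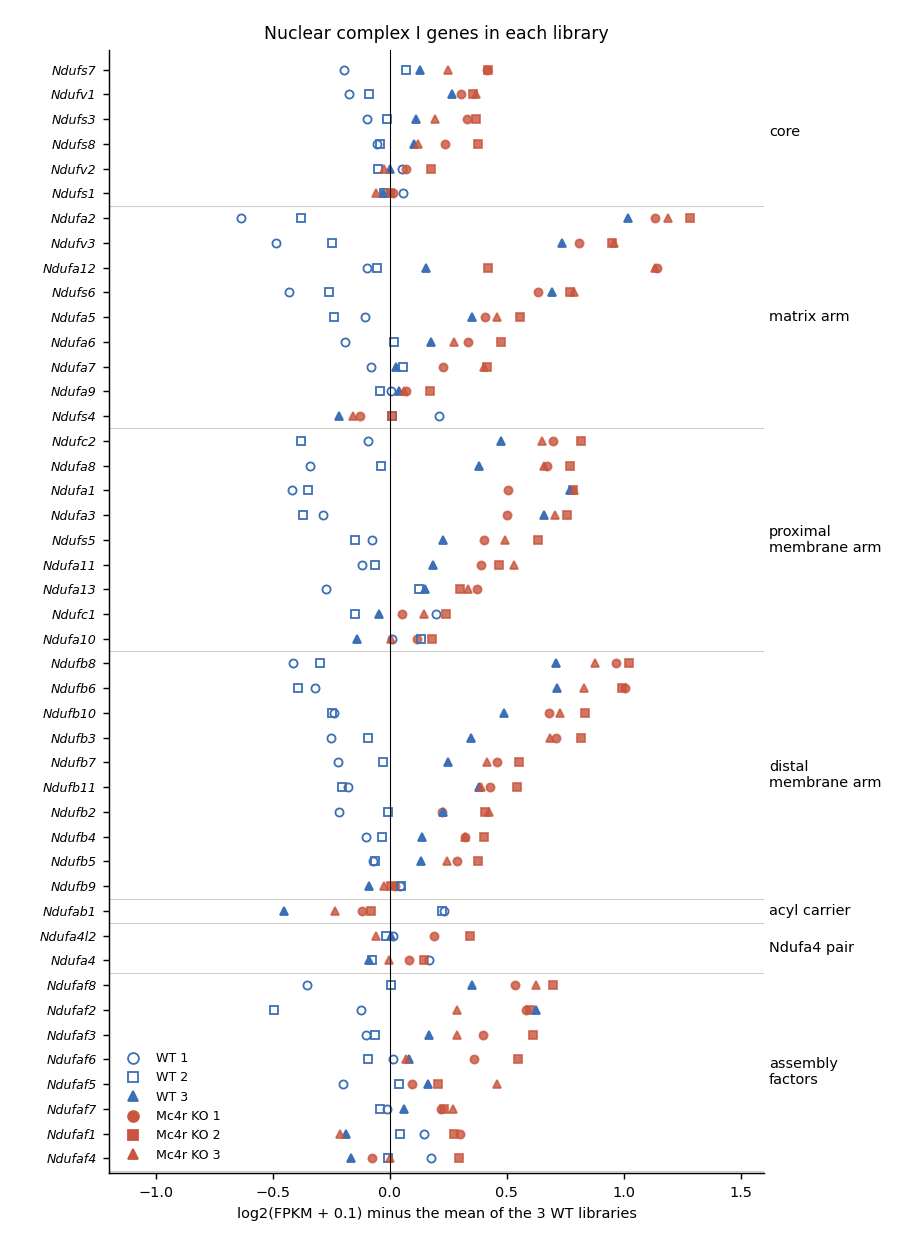
log2(FPKM + 0.1) of 45 of the 46 members in each library minus the mean of the gene's 3 WT libraries, by role, with WT in blue (replicate 3 filled) and Mc4r KO in red. For the members at the top of the matrix and membrane arm blocks the filled blue triangle of WT replicate 3 lies near the red points, and the other WT libraries lie to the left of both.

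The number of members with an unadjusted p under 0.05 and a higher value was 30 in the fit above. Over the alternatives it ran from 1 to 34, and fits on both sides are given beside the share of all genes. It was 34 without WT replicate 3 (15.6% of all genes) and 33 with array weights (14.8%). It was 31 with limma voom on recovered reads (12.1%), with robust variances (12%) and with protein-coding genes only (14.7%). It was 14 with scaling to the FPKM total without mitochondrial genes (4.93% of all genes), 15 with quantile normalization (9.96%), 17 with the length trend of each library removed (9.73%), 17 with the length and GC trends removed (9.21%), 1 with the mitochondrial share as a covariate (5.77%), 18 without WT replicate 1 (8.57%), 19 without WT replicate 2 (9.29%) and 16 without Mc4r KO replicate 2 (8.1%).

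The number of members called depended on WT replicate 3. This library was above both other WT libraries in 34 of 46 members (73.9%), against 36.8% of all genes tested. For such members leaving it out could only raise the log2 fold change, so that direction was fixed in advance. With WT replicates 1 and 2 as the WT group, 14 members were called, all higher in Mc4r KO, against 4.04% of all genes. In that fit 25 members had an adjusted p under 0.05 and a higher value (54.3%), against 6.95% of all genes. Ndufab1 had an adjusted p of 0.034 and a lower value (log2 fold change -0.37). The median log2 fold change of the members was then 0.44, with 0.29 in the core subunits, 0.65 in the matrix arm, 0.62 in the proximal and 0.62 in the distal membrane arm and 0.35 in the assembly factors. The 14 members and their values in this fit, by role, follow. In the matrix arm they were Ndufa2 (log2 fold change 1.71, adjusted p = 0.0025), Ndufv3 (1.27, adjusted p = 0.0049), Ndufs6 (1.08, adjusted p = 0.0052) and Ndufa12 (0.97, adjusted p = 0.04998). In the proximal membrane arm they were Ndufa1 (1.07, adjusted p = 0.0076), Ndufa3 (0.98, adjusted p = 0.0074), Ndufc2 (0.96, adjusted p = 0.0098) and Ndufa8 (0.89, adjusted p = 0.011). In the distal arm they were Ndufb8 (1.31, adjusted p = 0.0025), Ndufb6 (1.30, adjusted p = 0.0029), Ndufb10 (0.99, adjusted p = 0.0049) and Ndufb3 (0.91, adjusted p = 0.0060), and among the assembly factors Ndufaf2 (0.80, adjusted p = 0.035) and Ndufaf8 (0.79, adjusted p = 0.019). Without any single library other than WT replicate 3, 0 members were called, where 0.039% to 0.0778% of all genes were called. Set against WT replicate 3 alone, the Mc4r KO mean was still higher in 43 of 46 members, by a median of 0.19 on the log2 scale. In the same comparison 3039 other protein-coding genes that averaged 10 FPKM or more had a median of 0.10. How many of these others were higher was not counted. With limma voom on the read numbers recovered from the FPKM, 3 members were called, Ndufa12, Ndufb6 and Ndufb8, against 1.76% of all genes, and 10 members had an adjusted p under 0.05 and a higher value (21.7%), against 2.98%.

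Members that differed between WT libraries also tended to differ between the groups. Across the 46 members, the difference of the Mc4r KO mean from WT replicate 1 and the difference of WT replicate 3 from WT replicate 2, which share no library, had a Spearman correlation of 0.89, and across the 3039 other genes one of 0.53. Genes are not independent replicates, and the points share the libraries, so no p is given. In 29 of the 46 members WT replicate 3 was nearer to the Mc4r KO mean than to the mean of the other WT libraries. How many other genes had this order was not counted. The mitochondrial share and the atrial markers also set WT replicate 3 apart from both other WT libraries. In the study's own library statistics so did the GC content of the reads, which was higher, and the share of multi-mapped reads, which was lower. In both it was close to the Mc4r KO libraries. The part of these library traits in the members' values was not tested.

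**Figure D3:**
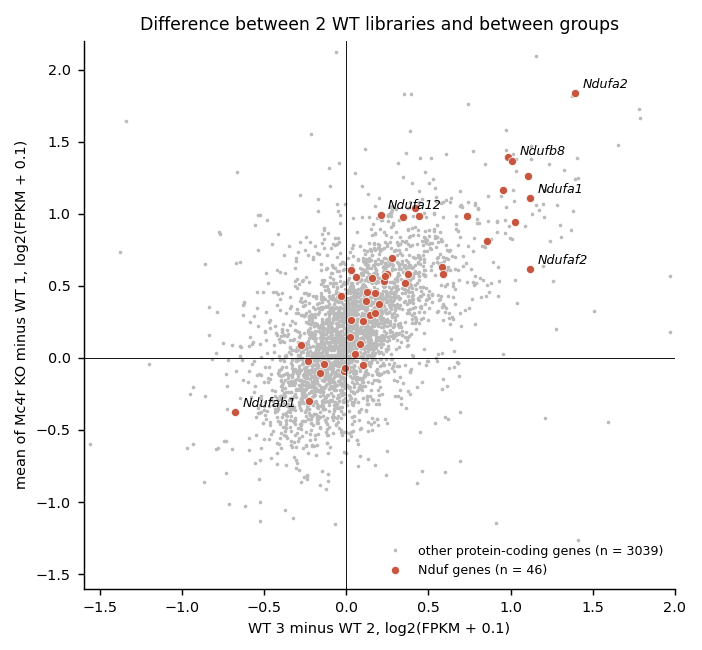
For each gene, the mean of the Mc4r KO libraries minus WT replicate 1 (vertical) against WT replicate 3 minus WT replicate 2 (horizontal), both on log2(FPKM + 0.1), for 46 members (red) and 3039 other genes (grey). Ndufa2 lies at the upper right and Ndufab1 at the lower left, and the Spearman correlation over the members is 0.89.

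Among the 7 core subunits, which bind the flavin and the iron-sulfur clusters, 6 were higher in Mc4r KO, with a median log2 fold change of 0.24, and 4 had an unadjusted p under 0.05. Beside these counts and those of the other roles below, 48.8% of all genes tested were higher, and 12% were higher with such a p. Ndufs7, which carries the last iron-sulfur cluster before ubiquinone, had 152, 183 and 191 FPKM in WT and 233, 234 and 208 in Mc4r KO. Ndufv1, the subunit that binds NADH and the flavin, had 162, 172 and 220 FPKM in WT and 226, 235 and 237 in Mc4r KO. In both genes the groups did not overlap, and the log2 fold changes were 0.36 (SE 0.11, adjusted p = 0.15) and 0.34 (SE 0.13, adjusted p = 0.19). Ndufs3 and Ndufs8, of the ubiquinone-binding module, had log2 fold changes of 0.30 and 0.24.

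Other core subunits were closer between the groups. Ndufv2, an iron-sulfur partner of Ndufv1, had a log2 fold change of 0.07, and its groups overlapped. Ndufs1, the largest subunit and the carrier of several clusters, had 74.3, 70.2 and 69.9 FPKM in WT and 72.1, 71.5 and 68.4 in Mc4r KO. Its log2 fold change was -0.02 (SE 0.07, adjusted p = 0.93), and WT replicate 3 did not stand apart from the other libraries.

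The median log2 fold change over the 9 accessory subunits of the matrix arm was 0.47, and 7 had an unadjusted p under 0.05 and a higher value. Ndufa2, a small subunit with a thioredoxin fold, had 103, 123 and 324 FPKM in WT and 352, 390 and 365 in Mc4r KO. Its WT libraries differed 3.14-fold among themselves and its Mc4r KO libraries 1.11-fold, and WT replicate 3 lay just under the Mc4r KO values. The log2 fold change of 1.20 (SE 0.39, adjusted p = 0.15) was the largest among the members, and without WT replicate 3 it was 1.71 with an adjusted p of 0.0025. Ndufv3, the third subunit of the flavoprotein fraction, likewise had WT replicate 3 next to the Mc4r KO libraries, with 33.0, 39.0 and 77.3 FPKM in WT and 81.2, 89.6 and 89.99 in Mc4r KO, and a log2 fold change of 0.90 (SE 0.29, adjusted p = 0.15). For Ndufs6, a zinc-binding subunit, WT replicate 3 (252 FPKM) was above Mc4r KO replicate 1 (241 FPKM), so the groups overlapped.

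Ndufa12 differed from these in which libraries were apart. This subunit (ENSMUSG00000020022, chromosome 10, 94198720 to 94221443) takes its place late in assembly, where it replaces its paralog Ndufaf2. It had 29.2, 30.0 and 34.7 FPKM in WT and 68.9, 41.7 and 68.5 in Mc4r KO. The WT libraries were within 1.19-fold of each other, and the Mc4r KO libraries split, with replicate 2 nearer to WT than to the other Mc4r KO libraries. The log2 fold change was 0.90 (SE 0.20, adjusted p = 0.088), and 0.74 against WT replicate 3 alone, the largest such value among the members. Of its 50-base words, 17.7% also occur in the gene Gm15920, so reads from these may be shared or lost. Ndufaf2 itself had 3.02, 2.32 and 5.15 FPKM in WT and 4.997, 5.06 and 4.06 in Mc4r KO, with overlap. Exons of B230220B15Rik on the opposite strand cover 65.7% of the Ndufaf2 exons, and the use of strand in the counting is not given in the sources used here.

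Other matrix arm subunits varied less. Ndufa7 (ENSMUSG00000041881, chromosome 17, 33824591 to 33838316) had 64.3, 70.6 and 69.1 FPKM in WT and 79.4, 90.6 and 89.8 in Mc4r KO. Here WT replicate 3 lay within the other WT libraries, the groups did not overlap, and the log2 fold change was 0.35 (SE 0.09, adjusted p = 0.11). Ndufa5, Ndufa6 and Ndufa9 had log2 fold changes of 0.47, 0.36 and 0.10. Ndufs4, whose loss is a classic cause of complex I deficiency in mice, had 73.8, 64.2 and 54.8 FPKM in WT and 58.5, 64.3 and 57.2 in Mc4r KO, with overlap and a log2 fold change of -0.09 (SE 0.12, adjusted p = 0.71).

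All 9 accessory subunits of the proximal membrane arm were higher in Mc4r KO, with a median log2 fold change of 0.51, and 6 had an unadjusted p under 0.05. Ndufa11 (ENSMUSG00000002379, chromosome 17, 56717767 to 56722141), a membrane-embedded subunit whose upstream sequence holds the NRF1 cores shown above, had 110, 115 and 136 FPKM in WT and 157, 166 and 173 in Mc4r KO. Its log2 fold change was 0.46 (SE 0.10, adjusted p = 0.092). Ndufs5 (ENSMUSG00000028648, chromosome 4, 123712710 to 123718202), which lies on the intermembrane side, had 136, 130 and 168 FPKM in WT and 190, 223 and 202 in Mc4r KO, with a log2 fold change of 0.51 (SE 0.12, adjusted p = 0.0996). In both genes the groups did not overlap and WT replicate 3 was the highest WT library.

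Ndufa8 (ENSMUSG00000026895, chromosome 2, 36036326 to 36049406), another subunit of the intermembrane side, had 158, 194 and 260 FPKM in WT and 318, 340 and 315 in Mc4r KO, with a log2 fold change of 0.70 (SE 0.18, adjusted p = 0.10). Ndufc2 had the largest log2 fold change of the proximal arm, 0.72 (SE 0.20, adjusted p = 0.12). The values of both were without overlap. In Ndufa1 and Ndufa3, short membrane subunits, WT replicate 3 lay among the Mc4r KO libraries: Ndufa1 had 134, 140 and 304 FPKM in WT and 253, 307 and 308 in Mc4r KO. Ndufa10, which resembles nucleoside kinases, had the smallest log2 fold change of the arm (0.10), and Ndufc1 had 0.15, both with overlap. Ndufa13, also known as Grim19, had 0.34, and exons of Tssk6 on the opposite strand cover 30.0% of it.

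All 10 accessory subunits of the distal membrane arm were higher in Mc4r KO, with a median log2 fold change of 0.46, and 9 had an unadjusted p under 0.05. Ndufb3 (ENSMUSG00000026032, chromosome 1, 58586384 to 58595964), a single-pass membrane subunit, had 81.2, 90.5 and 123 FPKM in WT and 158, 170 and 155 in Mc4r KO. It had the smallest adjusted p of the members, 0.081, with a log2 fold change of 0.74 (SE 0.16). Ndufb8 had 29.7, 32.2 and 64.9 FPKM in WT and 77.3, 80.5 and 72.8 in Mc4r KO. Ndufb6 had 65.8, 62.5 and 135 FPKM in WT and 165, 164 and 146 in Mc4r KO. In both genes WT replicate 3 lay at about 2 times the other WT libraries and below the Mc4r KO libraries. Their log2 fold changes were 0.95 (SE 0.28, adjusted p = 0.13) and 0.94 (SE 0.28, adjusted p = 0.13), and 1.31 and 1.30 without WT replicate 3. Exons of Smim27 on the opposite strand cover 39.0% of Ndufb6.

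Ndufb10 had a log2 fold change of 0.75 (SE 0.20, adjusted p = 0.11) and Ndufb7, on the intermembrane side, of 0.47. Ndufb11, the distal arm member with the highest FPKM on the deposited gene lengths, had 233, 229 and 344 FPKM in WT and 355, 384 and 346 in Mc4r KO, so the lowest Mc4r KO library was barely above WT replicate 3. Its log2 fold change was 0.45 (SE 0.17, adjusted p = 0.19). Ndufb2, Ndufb4 and Ndufb5 lay between 0.30 and 0.35. Ndufb9 was the exception in this arm, with 176, 176 and 160 FPKM in WT and 173, 171 and 167 in Mc4r KO and a log2 fold change of 0.00 (0.0008, SE 0.08, adjusted p = 0.998). Exons of Gm49356 on the same strand cover 19.5% of Ndufb9.

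**Figure D4:**
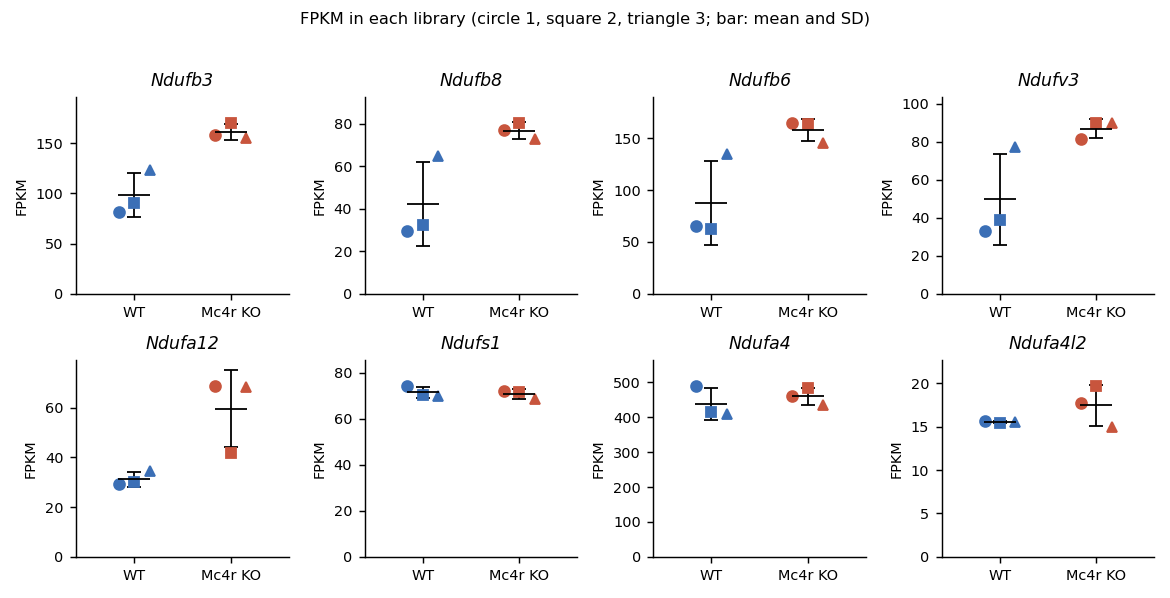
FPKM in each library for 8 members, with the mean and SD of 3 libraries per group as black bars and an axis from 0. Ndufb3, Ndufb8, Ndufb6 and Ndufv3 have WT replicate 3 (triangle) above the other WT libraries, Ndufa12 has Mc4r KO replicate 2 (square, 41.7 FPKM) apart from its group, and the groups overlap in Ndufs1, Ndufa4 and Ndufa4l2.

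Ndufab1, the acyl carrier protein, is present in the membrane arm and next to the matrix arm and also serves mitochondrial fatty acid synthesis. It had 38.3, 38.0 and 23.8 FPKM in WT and 30.0, 30.9 and 27.7 in Mc4r KO. WT replicate 3 was the lowest of all libraries, the groups overlapped, and the log2 fold change was -0.14 (SE 0.19, adjusted p = 0.70), the lowest among the members. Its processed pseudogene Ndufab1-ps, which shares sequence with it, had 111, 110 and 61.1 FPKM in WT and 74.5, 80.5 and 70.6 in Mc4r KO, also lowest in WT replicate 3.

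Ndufa4 and Ndufa4l2 encode related proteins. Ndufa4 was first described in complex I and is now assigned to complex IV, and Ndufa4l2 is known as a gene induced by hypoxia. Their coding sequences show how far the reads of one can be told from those of the other, and capitals mark bases that differ or have no partner in the alignment:
Ndufa4: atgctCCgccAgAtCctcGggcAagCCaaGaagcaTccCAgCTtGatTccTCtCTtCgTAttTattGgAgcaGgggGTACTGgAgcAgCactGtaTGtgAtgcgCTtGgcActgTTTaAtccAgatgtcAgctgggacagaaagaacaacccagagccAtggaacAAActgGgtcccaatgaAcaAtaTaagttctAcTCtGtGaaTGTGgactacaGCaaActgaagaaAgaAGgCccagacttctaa
Ndufa4l2: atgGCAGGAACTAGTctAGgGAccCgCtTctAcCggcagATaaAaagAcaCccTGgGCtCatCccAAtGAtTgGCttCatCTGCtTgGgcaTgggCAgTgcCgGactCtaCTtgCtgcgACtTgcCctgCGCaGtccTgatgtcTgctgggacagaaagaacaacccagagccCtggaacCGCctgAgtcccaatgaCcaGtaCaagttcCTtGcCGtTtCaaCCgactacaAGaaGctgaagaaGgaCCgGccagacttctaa
Of 242 aligned bases, 174 (71.9%) were identical, and the longest identical run was 28 bases, so no 50-base word is shared. Ndufa4, the most abundant member, had 490, 414 and 410 FPKM in WT and 461, 483 and 436 in Mc4r KO. Ndufa4l2 was much lower, with 15.7, 15.4 and 15.6 FPKM in WT and 17.7, 19.7 and 14.9 in Mc4r KO. The groups overlapped in both genes, and the log2 fold changes were 0.07 (SE 0.11, adjusted p = 0.75) and 0.16 (SE 0.11, adjusted p = 0.48).

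All 8 assembly factors were higher on average in Mc4r KO, with a median log2 fold change of 0.29, and 4 had an unadjusted p under 0.05. Ndufaf8, which acts with Ndufaf5 on the core subunit Ndufs7, had 16.4, 21.1 and 26.8 FPKM in WT and 30.5, 34.2 and 32.4 in Mc4r KO, without overlap and with a log2 fold change of 0.62 (SE 0.17, adjusted p = 0.12). Ndufaf3, an early factor of the ubiquinone-binding module, had 10.5, 10.8 and 12.6 FPKM in WT and 14.9, 17.3 and 13.7 in Mc4r KO, with a log2 fold change of 0.43 (SE 0.12, adjusted p = 0.12). Ndufaf4, the partner of Ndufaf3, had 17.3, 15.2 and 13.6 FPKM in WT and 14.5, 18.8 and 15.3 in Mc4r KO. The groups did not overlap in Ndufaf3 and overlapped in Ndufaf4, whose log2 fold change was 0.07 (SE 0.13, adjusted p = 0.80), and a difference between the partners was not tested.

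Ndufaf7, a methyltransferase that acts early in assembly, had 6.11, 5.98 and 6.44 FPKM in WT and 7.19, 7.25 and 7.47 in Mc4r KO, a small difference without overlap (log2 fold change 0.24, SE 0.08, adjusted p = 0.18). Ndufaf1, which builds the membrane arm together with Ecsit and Acad9, had a log2 fold change of 0.12, Ndufaf5, the hydroxylase of Ndufs7, of 0.25 and Ndufaf6 of 0.33, all with overlap. Of the assembly factors that are not named Nduf, 14 were tested, and all 14 were higher in Mc4r KO. Their median log2 fold change was 0.22, 5 had an unadjusted p under 0.05, and 0 were called. Of all genes tested, 48.8% were higher, 12% were higher with such a p, and 0.46% were called. The log2 fold changes ran from 0.06 for Lyrm2 to 0.57 for Chchd4, an import factor of the intermembrane space.

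The 7 complex I subunits encoded by mitochondrial DNA did not move with the nuclear members. Their summed FPKM was 139500, 128900 and 94710 in WT and 79810, 99650 and 83400 in Mc4r KO, so WT replicate 3 lay among the Mc4r KO libraries. Of the 7, 6 had a negative log2 fold change, with a median log2 fold change of -0.49, and 0 were called. Only mt-Nd6 had an unadjusted p under 0.05, with 21610, 21800 and 12730 FPKM in WT and 11660, 11310 and 10520 in Mc4r KO and a log2 fold change of -0.70 (adjusted p = 0.24). The values ran from -1.34 for mt-Nd3 to 0.27 for mt-Nd4l. The libraries were enriched for polyadenylated RNA, and how far this step catches mitochondrial transcripts in each library was not tested.

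Most nuclear subunits of the other respiratory complexes had positive log2 fold changes as well. Of 47 tested genes of complexes II to V, 41 had a positive log2 fold change, 20 had an unadjusted p under 0.05 and a higher value, and 0 were called. The shares of all genes tested were 48.8%, 12% and 0.46%. The median log2 fold change was 0.15 in complex II, 0.38 in complex III, 0.28 in complex IV and 0.20 in complex V, against 0.35 for the members, and a difference between complexes was not tested. Uqcr11 of complex III had 155, 187 and 485 FPKM in WT and 528, 558 and 556 in Mc4r KO, and Atp5k of complex V had 59.5, 52.7 and 263 in WT and 271, 318 and 292 in Mc4r KO. In both, as in Ndufa2, WT replicate 3 was next to the Mc4r KO libraries. With scaling to the total without mitochondrial genes the medians were -0.04, 0.18, 0.08 and 0.01 for complexes II, III, IV and V, so complex II turned.

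Of 8 regulators of nuclear respiratory genes, 0 were called, the median log2 fold change was 0.00 (0.0014), and 4 were higher and 4 lower. An unadjusted p under 0.05 was found for 2 of the higher and 2 of the lower ones. The groups did not overlap in 2 higher and 2 lower ones, against 14.1% and 12.4% of all genes. Ppargc1b had the smallest adjusted p of the list (0.13), with a log2 fold change of 0.32. Esrra, which encodes an estrogen-related receptor and is known to act on promoters of respiratory genes, had 29.0, 31.6 and 64.9 FPKM in WT and 71.9, 84.8 and 71.4 in Mc4r KO, the largest log2 fold change of the list (0.96), again with WT replicate 3 close to the Mc4r KO libraries. The smallest was that of Pprc1 (-0.40). Ppargc1a, the coactivator known as PGC-1 alpha, had 15.5, 13.0 and 13.5 FPKM in WT and 14.0, 14.4 and 13.5 in Mc4r KO, with overlap.

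Shorter genes differed more between the groups than longer ones, among the members and among other genes. Across the 46 members the log2 fold change and the gene length had a Spearman correlation of -0.51, and across the 3039 other protein-coding genes of -0.24. Of the 42 members that averaged 10 FPKM or more, 11 were shorter than 1000 bases, and their median log2 fold change was 0.70, while 157 other genes of that length had 0.36. Between 1000 and 1500 bases the medians were 0.33 for the members and 0.24 for the others, between 1500 and 2500 bases 0.35 and 0.19, and above 2500 bases 0.10 and 0.09. The GC content of the representative transcript had a Spearman correlation with the log2 fold change of 0.37 across members and 0.46 across the others. With the length and GC trends of each library removed, an alternative chosen after seeing the data, 39 members were higher and 7 lower, with a median of 0.17.

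**Figure D5:**
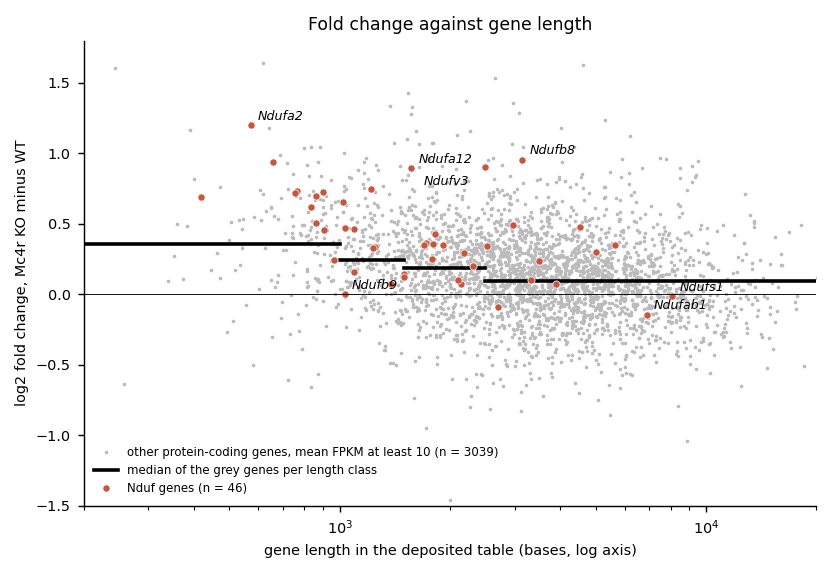
log2 fold change (Mc4r KO minus WT) against the gene length in the deposited table (log axis) for 46 members in red and 3039 other protein-coding genes in grey, with the median of the grey genes in each length class as a black line. The black line falls from 0.36 below 1000 bases to 0.09 above 2500, and short members such as Ndufa2 lie above it.

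The scaling also bore on the direction. With each library scaled to its FPKM total without mitochondrial genes, the median of all genes moved to -0.19 and that of the members to 0.16, so that 34 members were higher and 12 lower (by role, the medians were 0.05 in the core, 0.28 in the matrix arm, 0.31 in the proximal and 0.27 in the distal membrane arm and 0.10 in the assembly factors), while the difference between the medians stayed at 0.35 against 0.36. With the mitochondrial share of each library as a covariate, 39 members were higher and 7 lower, the median was 0.17, and 1 member had an unadjusted p under 0.05. Every Mc4r KO library had a lower mitochondrial share than every WT library, and the parts of the share and of the group in these values cannot be told apart in this design.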

How the data were processed

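Polyadenylated RNA of 6 hearts, 3 per group, was sequenced in paired ends. After filtering, the authors aligned with HISAT2 2.0.5 (mm10, per the submitters' processing notes), counted with featureCounts and deposited FPKM with the length of each gene; the annotation release and the strand setting are not given in the sources used here. Reads were recovered by dividing FPKM times length by the step of each library, and 100% of the values came out whole (tolerance 0.05). Gene length, in bases, was used as deposited.

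Values were scaled by median-of-ratios factors, which were 1 in each library, and fitted with limma 3.58.1 (R 4.3.3) with trend on log2(FPKM + 0.1), all 6 libraries and group as the only factor, with two-sided Benjamini-Hochberg adjusted p over 18035 genes. On this scale the change of weakly expressed genes is understated. The script was tested on simulated data. Members and lists were chosen with earlier results of these data known. The naming rule held the 6 members of smallest p, the 4 largest rises and falls (only 3 members were negative), the 3 highest and lowest, the Ndufa4 pair, the core subunits and the assembly factors. Values in every library are given for these except Ndufb2, Ndufs3, Ndufs8, Ndufv2, Ndufaf1, Ndufaf5 and Ndufaf6, which are described more briefly. Members outside the rule with values in every library were chosen after their values were seen. Results for 1 member are not reported here on its own, and it is included in the counts and medians. Copies were searched as shared 50-base words in GENCODE M21 transcripts, which were also used for coding sequences (Biopython 1.88). Python 3.11.15 with matplotlib 3.10.9 drew the figures. Counting floors of 3 reads cover counting error only. The 23 alternatives included pseudocounts of 1 and 0.01, other filters and scalings, limma voom on the recovered reads, the replicate number as a block, and fits without each library.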

Additional observations from a re-analysis of the deposited data

How the results depend on the processing

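Over the 23 alternatives, the 46 members kept a positive median log2 fold change and 34 to 45 of them a positive value. The number called was 0 in all alternatives but 4, namely 14 without WT replicate 3, 10 with array weights, 3 with limma voom on the recovered reads and 1 with protein-coding genes only, and the number with an adjusted p under 0.05 was 26, 16, 10 and 2 in these. Of all genes, 4.04%, 2.41%, 1.76% and 1.51% were called in these fits, and 10.3%, 6.37%, 4.58% and 3.4% had an adjusted p under 0.05. Without each library in turn these numbers ran from 0 to 14 and from 0 to 26. The shares of all genes ran from 0.039% to 4.04% and from 0.039% to 10.3%. The median log2 fold change was 0.20 with quantile normalization, 0.16 with scaling to the total without mitochondrial genes, 0.17 with the mitochondrial share as a covariate and 0.17 with the length and GC trends removed, and its distance from the median of all genes was 0.21, 0.35, 0.17 and 0.21. Over all genes, 83 were called (57 higher and 26 lower), between 2 and 726 under the alternatives, with 16 higher and 25 lower under scaling without mitochondrial genes and 30 higher and 19 lower under quantile normalization.

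Directions turned for members near 0 and, with the mitochondrial share as a covariate, for some of the largest: in that fit the log2 fold change was -0.049 for Ndufa2, -0.016 for Ndufv3, -0.19 for Ndufaf2, -0.0020 for Ndufaf5, 0.44 for Ndufab1, 0.24 for Ndufs4 and 0.041 for Ndufs1. With quantile normalization it was -0.079 for Ndufa4, -0.021 for Ndufaf1, -0.035 for Ndufaf4 and -0.15 for Ndufv2. With scaling to the total without mitochondrial genes it was -0.12 for Ndufa4, Ndufaf4 and Ndufv2, -0.039 for Ndufa4l2 and -0.076 for Ndufaf1, and also -0.19 for Ndufb9, -0.096 for Ndufa10, -0.094 for Ndufa9 and -0.050 for Ndufc1. With the length trend removed it was -0.10 for Ndufa4, -0.038 for Ndufa4l2, -0.048 for Ndufaf1, -0.048 for Ndufv2 and 0.041 for Ndufs1. With the GC trend removed it was -0.084 for Ndufa4l2, 0.079 for Ndufs1 and 0.049 for Ndufs4, and with both trends removed -0.22 for Ndufa4l2, 0.14 for Ndufs1, -0.049 for Ndufs8, -0.30 for Ndufb9, -0.063 for Ndufa13 and -0.0081 for Ndufa10; these fits were chosen after seeing the data. Without each library in turn, Ndufaf4 ran from -0.037 to 0.16, Ndufs1 from -0.031 to 0.011 and Ndufs4 from -0.20 to 0.011. The cause was not tested. All 46 members enter the counts of negative values, which were 3 in the fit of the report and 10, 12, 7, 9 and 7 with quantile normalization, scaling without mitochondrial genes, the mitochondrial covariate, the length trend removed and both trends removed. For the 31 members of the naming rule, 661 of the 713 values kept their direction and their side of the threshold, 20 passed it and 32 turned. Several alternatives could not move a log2 fold change, so their directions were fixed in advance. These were the other filters on low values, protein-coding genes only, the replicate block, and the fits with no trend or robust variances. The fit on FPKM as deposited was the main fit itself, because the scaling factors were 1.

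Libraries with the same replicate number did not deviate together (correlations of -0.14, 0.01 and -0.08 over 11297 genes), so the numbers are no pairing. With the replicate block, 0 members were called, 29 had an unadjusted p under 0.05 and the median was 0.35, and over all genes 11 were called in place of 83. All 29 were higher in Mc4r KO, against 11.3% of all genes with such a p and a higher value. The lowest members, Ndufaf2 and Ndufb2, had between 99 and 436 reads per library, above the floor of 3.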

Other observations

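The rows named Nduf that the biotype left out did not have the order of libraries seen in most members. Ndufb1-ps, which the table lists as a noncoding gene, had 106, 107 and 66.7 FPKM in WT and 70.7, 79.5 and 74.2 in Mc4r KO, and the pseudogene Ndufab1-ps had 111, 110 and 61.1 in WT and 74.5, 80.5 and 70.6 in Mc4r KO. In both, WT replicate 3 was the lowest of the 6 libraries, where it lay close to the Mc4r KO libraries. Ndufb4c had 12.2, 8.39 and 11.6 FPKM in WT and 7.76, 11.5 and 10.9 in Mc4r KO, Ndufs6b had between 17 and 48 reads per library, and Ndufa11b had 1 read in WT replicate 2 and 0 in the others.

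Among the members, the spread within a group was mostly on the WT side. The highest WT library was over 2 times the lowest in Ndufa2, Ndufv3, Ndufa1, Ndufaf2, Ndufb8, Ndufs6, Ndufb6 and Ndufa3, while the widest spread among the Mc4r KO libraries was the 1.65-fold of Ndufa12. These genes were chosen after their values were seen.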
